A study of Rattus norvegicus with 18 samples.

Results

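Rel-family factors of the NF-kB pathway, their inhibitors and a set of their classical target genes were examined in rat bone marrow mesenchymal stem cells (BMSC), the adherent stromal cells that grow out of plated marrow. The set holds 10 genes (Nfkb1, Nfkb2, Rela, Relb, Nfkbia, Tnfaip3, Tnf, Birc3, Ptgs2 and Icam1), taken as the probe sets annotated with exactly one of these symbols. All 10 were on the array, with 11 of its 31099 probe sets, among 14218 genes with a name. All 11 probe sets passed the intensity filter that left 21729 probe sets and 11446 named genes for testing. Tnf has 2 probe sets and every other gene has 1.

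The cells came from Sprague-Dawley rats that were 6 weeks old when feeding began. The high-fat diet (HFD) held 60% basal feed, 20% lard, 10% sucrose and 10% egg yolk powder, and the normal diet (ND) was basal feed alone. RNA was taken from cultured cells after 1, 2 and 4 months on each diet and measured on Affymetrix arrays, 3 per diet and feeding time, 18 in all. The groups were HFD and ND at 1 month, HFD and ND at 2 months, and HFD and ND at 4 months, and no group carried a transgene or drug. The cells were obtained by plating whole marrow without sorting, so blood-lineage cells can grow along with the stroma, and the labels put them at passage 3 while the series description puts them at passage 1. Each value is a log2 intensity of a probe set, which compares arrays for one probe set and not one gene with another.

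NF-kB factors are dimers of Rel-family proteins. In resting cells IkB proteins hold them in the cytoplasm, and cytokine or pathogen receptors release them through the IkB kinases. The freed dimers bind kB sites and switch on inflammatory, survival and adhesion genes, together with IkB-alpha (encoded by Nfkbia) and A20 (encoded by Tnfaip3), which shut the pathway down again. In marrow stroma the pathway is known for its response to tumor necrosis factor and interleukin-1 and for induction of cyclooxygenase-2. This enzyme, encoded by Ptgs2, starts the synthesis of the prostaglandin E2 that stromal cells release.

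Promoter windows are shown for the genes that carry the feedback loop and for Ptgs2, whose level differed most between the diets. Windows of 300 bases, 250 before and 50 after a transcript start, were available for 8 of the 10 genes in RefSeq on the GRCr8 assembly, all but Relb and Birc3. Matches to the kB consensus (GGG, a purine, any base, A or T, then 2 pyrimidines and CC), or to a second form that overlaps it and reads GGGA, any 2 bases and TTCC, were searched on both strands and are in capitals. For Nfkb1, Nfkb2, Nfkbia and Tnfaip3 the transcript start used lies inside the gene's annotated span. The 5 windows read 5′ to 3′ along the gene.

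Nfkb1 promoter, chr2:226805413-226805712, minus strand: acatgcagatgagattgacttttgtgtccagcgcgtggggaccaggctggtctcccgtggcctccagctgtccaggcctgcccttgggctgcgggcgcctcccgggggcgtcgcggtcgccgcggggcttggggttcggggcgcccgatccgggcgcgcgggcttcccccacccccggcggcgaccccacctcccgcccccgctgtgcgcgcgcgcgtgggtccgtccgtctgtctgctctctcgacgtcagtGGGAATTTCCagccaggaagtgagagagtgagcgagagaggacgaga

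Nfkb2 promoter, chr1:255108124-255108423, plus strand: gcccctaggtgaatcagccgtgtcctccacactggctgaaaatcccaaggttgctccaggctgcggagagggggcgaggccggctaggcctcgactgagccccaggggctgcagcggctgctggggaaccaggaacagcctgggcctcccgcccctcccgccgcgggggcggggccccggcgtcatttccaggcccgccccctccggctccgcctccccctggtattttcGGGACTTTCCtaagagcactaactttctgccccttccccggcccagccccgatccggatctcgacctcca

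Nfkbia promoter, chr6:78597023-78597322, minus strand: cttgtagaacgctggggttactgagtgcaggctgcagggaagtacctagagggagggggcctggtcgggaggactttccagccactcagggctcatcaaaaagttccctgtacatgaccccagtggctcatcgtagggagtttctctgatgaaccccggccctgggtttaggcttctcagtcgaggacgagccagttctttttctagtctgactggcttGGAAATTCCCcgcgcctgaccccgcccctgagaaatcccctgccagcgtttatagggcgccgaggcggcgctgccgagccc

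Tnfaip3 promoter, chr1:15543930-15544229, minus strand: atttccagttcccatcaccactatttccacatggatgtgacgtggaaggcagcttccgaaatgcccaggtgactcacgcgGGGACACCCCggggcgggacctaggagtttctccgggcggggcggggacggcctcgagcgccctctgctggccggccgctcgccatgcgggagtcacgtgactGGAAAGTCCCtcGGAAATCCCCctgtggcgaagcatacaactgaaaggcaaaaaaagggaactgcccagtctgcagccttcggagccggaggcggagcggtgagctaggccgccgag

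Ptgs2 promoter, chr13:64713813-64714112, plus strand: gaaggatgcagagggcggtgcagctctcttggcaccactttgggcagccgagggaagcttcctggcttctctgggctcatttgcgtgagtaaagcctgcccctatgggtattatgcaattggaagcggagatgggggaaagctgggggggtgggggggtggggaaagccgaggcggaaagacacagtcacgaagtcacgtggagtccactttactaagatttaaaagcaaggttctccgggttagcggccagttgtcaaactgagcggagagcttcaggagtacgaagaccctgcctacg

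The kB consensus occurred in 4 of the 8 windows, those of Nfkb1, Nfkb2, Nfkbia and Tnfaip3, and in 1400 of all 33469 windows of the same length in the table (4.18%). The second form, each of whose matches in these 4 windows overlapped a consensus match, occurred in the same 4 windows and in 435 of all windows (1.3%). Nfkb1 holds GGGAATTTCC at bases 254 to 263 of its window, and Nfkb2 holds GGGACTTTCC at bases 231 to 240. Nfkbia holds the same letters as Nfkb1 on the opposite strand, at bases 220 to 229. Tnfaip3 holds 3 consensus matches, at bases 81 to 90, 184 to 193 and 196 to 205, and the second of them is GGGACTTTCC on the opposite strand. No match to these letters lies in the windows of Ptgs2, Rela, Tnf or Icam1, which says nothing about sites outside them.

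The deposited values of ND replicate 1 at 1 month were displaced by 1343 probe sets and were realigned, and with that array left out 0 of the 10 genes passed in any diet comparison. The median intensity of an array was 25.4 to 27.1. All 16 genes of a stromal marker list were tested, the surface glycoprotein Thy1 reading 11.71 to 12.13 log2 units, the collagen chain Col1a1 12.04 to 12.70, the endoglin gene Eng 5.69 to 6.68 and the proteoglycan Dcn 7.05 to 11.26. Markers of macrophages, cells that respond strongly to NF-kB signals, differed among replicates. Of 24 macrophage and monocyte markers, 22 were on the array and all 22 were tested. Over the 18 of them with a value on every array, summed intensity ranged from 8477 to 21842 on the HFD and from 655 to 25511 on the ND arrays at 1 month. At 2 months it ranged from 2372 to 11354 on the HFD and from 3607 to 26433 on the ND arrays, and at 4 months from 17069 to 24070 on the HFD and from 10946 to 27029 on the ND arrays. Among these markers, Cd68, found in lysosomes, had readings between 4.53 and 10.78 on the log2 scale. Those of Ptprc, a phosphatase of leukocytes, lay between 2.18 and 7.96. The intensity filter was set at a mean log2 of 3.22. The lowest Cd68 reading was above that level and the lowest Ptprc reading below it, so Ptprc does not show macrophage RNA on every array. Lists of granulocyte, lymphocyte and endothelial markers had 4, 3 and 2 tested genes, and those of their genes on the array that had a value on every array summed to at most 188 on any array.

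**Figure D1:**
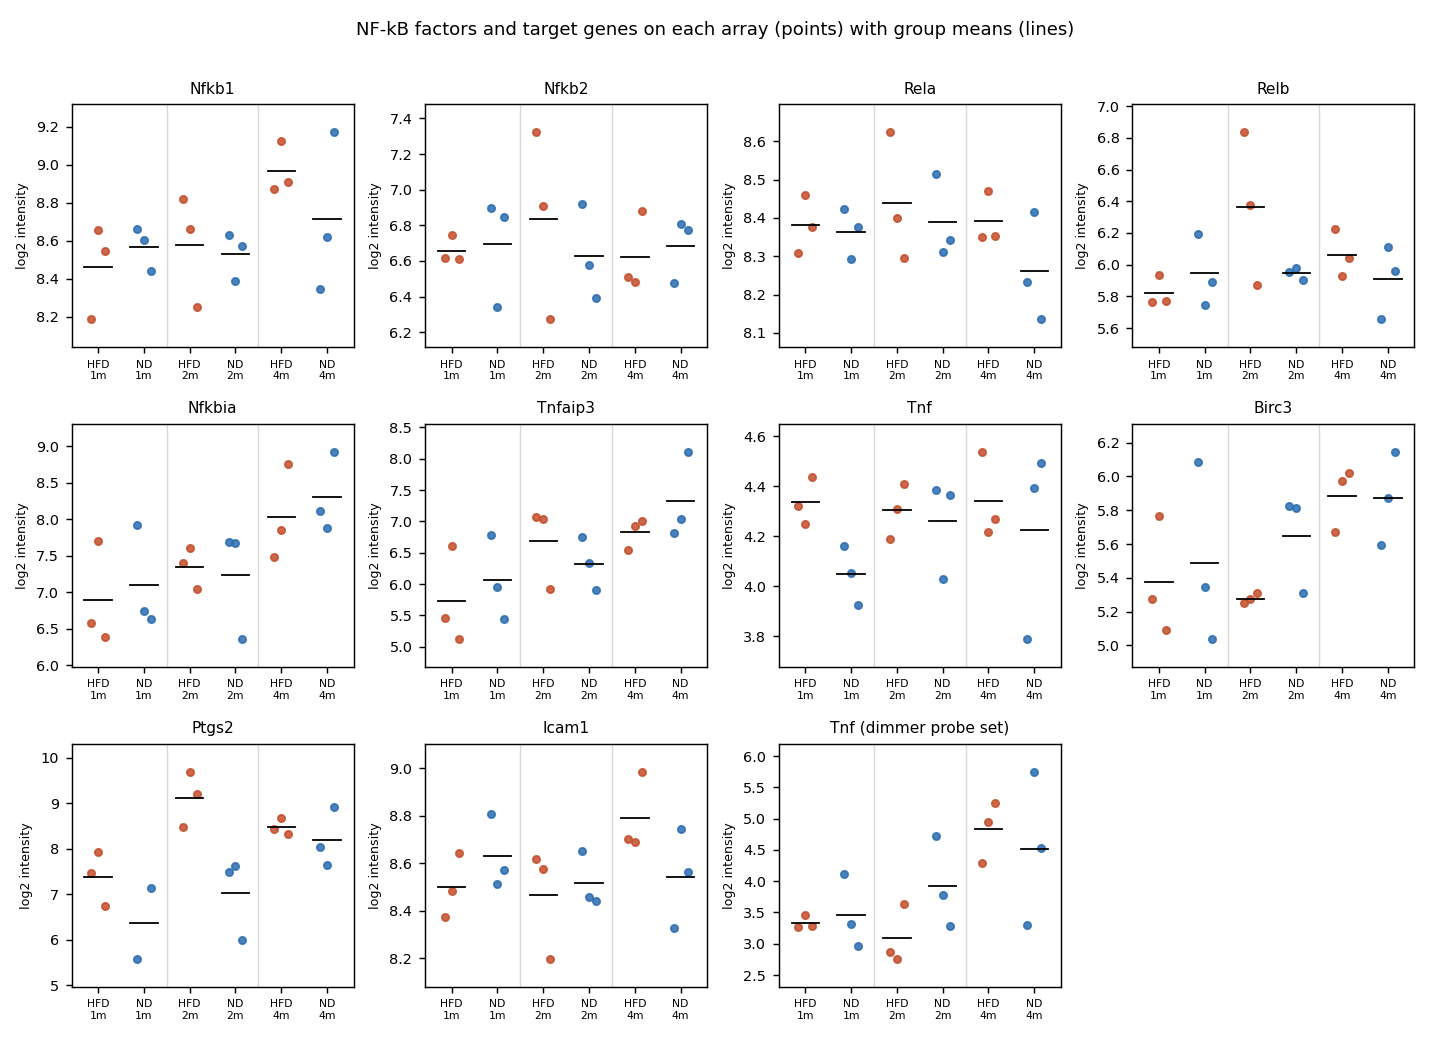
Log2 intensity of each of the 11 probe sets (y axes, separate scales) on the 18 arrays, grouped by diet and feeding time, with points for arrays and lines for group means. The 3 HFD points of Ptgs2 at 2 months, 8.48 to 9.69, lie above all 3 ND points, at most 7.63, while Rela stays between 8.14 and 8.62 throughout.

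The diet comparisons asked whether the RNA of these genes in the cultured cells differed between the whole diets. The HFD also held sucrose and egg yolk powder, so fat alone was not compared. No gene of the set passed in any of them, and the separation that came nearest was that of Ptgs2 at 2 months. Passing means an adjusted p under 0.05 (Benjamini-Hochberg, over all tested probe sets) in limma. At 1 month 0 of the 10 genes passed, against 0% of all named genes, and at 4 months likewise 0 of 10, against 0%. At 2 months 0 of 10 passed, where 2.49% of named genes did. At an unadjusted p under 0.05, the counts were 0 at 1 month (8.91% of all named genes), 1 at 2 months (21.3%) and 0 at 4 months (3.04%). The median log2 fold change (HFD minus ND) over the 10 genes was -0.11 at 1 month, 0.08 at 2 months and 0.12 at 4 months, beside -0.06, -0.04 and -0.01 over all named genes.

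None of the set's Rel-family factors passed between the diets, and Rela had the narrowest range of the set. Rela (chr1:212354336-212364815 in GRCr8) encodes p65, the main transactivating partner of the classical dimer. At 1 month Rela read 8.31, 8.46 and 8.38 on the HFD arrays, against 8.42, 8.29 and 8.38 on the ND arrays. At 2 months its HFD arrays read 8.62, 8.40 and 8.30, against 8.51, 8.31 and 8.34 for ND, and at 4 months 8.35, 8.47 and 8.35 for HFD, against 8.23, 8.41 and 8.14 for ND. The diets overlapped at every time. The differences were 0.02, 0.05 and 0.13 log2 units at 1, 2 and 4 months, each ± 0.10 (SE, n = 3 arrays a group), and the interval at 2 months ran from -0.17 to 0.28. Over the 18 arrays Rela had an SD of 0.11, at percentile 3.71 of the tested probe sets.

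Nfkb1 (chr2:226689745-226805897) encodes p105, the precursor of the p50 subunit, and is itself a target of the pathway. At 1 month it read 8.19, 8.66 and 8.55 on the HFD arrays, against 8.66, 8.60 and 8.44 on the ND arrays, and at 2 months 8.82, 8.66 and 8.25 for HFD, against 8.63, 8.39 and 8.57 for ND. At 4 months the HFD arrays read 8.87, 9.12 and 8.91, against 8.35, 8.62 and 9.17 for ND. The 4-month HFD arrays were uniformly high, while 1 ND array was higher than all of them and the other 2 lay lower. The diet differences of -0.10, 0.05 and 0.26 (SE 0.20) had adjusted p-values of 0.915, 0.913 and 0.999 in limma.

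Relb (chr1:88385717-88413380) and Nfkb2 (chr1:255106010-255114649) form the alternative pathway, in which p100, the product of Nfkb2, is cut to p52 and pairs with RelB. At 2 months Relb read 6.83, 6.38 and 5.87 on the HFD arrays, against 5.95, 5.98 and 5.90 on the ND arrays. HFD replicates 1 and 2 lay above every ND array and replicate 3 lay below them, so the diets overlapped. The difference was 0.42 ± 0.20 (SE), with an adjusted p of 0.244, and without HFD replicate 3 it was 0.66 with an adjusted p of 0.0398 and without HFD replicate 1 it was 0.18 with an adjusted p of 0.675. At 1 month Relb read 5.76, 5.93 and 5.77 for HFD, against 6.20, 5.75 and 5.89 for ND, and at 4 months 6.22, 5.93 and 6.04 for HFD, against 5.66, 6.11 and 5.96 for ND. These overlapped, with differences of -0.12 and 0.15.

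Nfkb2 showed the same order of replicates at 2 months, with 7.32, 6.91 and 6.27 on the HFD arrays, against 6.92, 6.58 and 6.39 on the ND arrays. Its HFD replicate 3 was the lowest of the 6. The difference was 0.20 ± 0.23 (SE, adjusted p = 0.632). At 1 month it read 6.62, 6.74 and 6.61 for HFD, against 6.90, 6.34 and 6.85 for ND, and at 4 months 6.51, 6.48 and 6.88 for HFD, against 6.47, 6.81 and 6.78 for ND. The ranges overlapped at both times.

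The inhibitors varied more between arrays than the factors, and neither passed between the diets. Nfkbia (chr6:78593844-78597307) encodes IkB-alpha, which traps the dimers and is resynthesised on their activation. It read 6.58, 7.71 and 6.39 on the HFD arrays at 1 month, against 7.92, 6.75 and 6.63 on the ND arrays. At 2 months the HFD arrays read 7.40, 7.60 and 7.04, against 7.68, 7.67 and 6.36 for ND, and at 4 months 7.49, 7.85 and 8.76 for HFD, against 8.11, 7.87 and 8.92 for ND. In each of the 6 groups except HFD at 2 months, the highest and lowest arrays were over 1 log2 unit apart, and the diets overlapped at every time. Differences of -0.21, 0.11 and -0.27 had a standard error of 0.48, and without ND replicate 1 the 1-month difference was 0.20.

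Tnfaip3 (chr1:15528921-15543993) encodes A20, a ubiquitin-editing enzyme that ends signalling from tumor necrosis factor receptors. At 1 month it read 5.45, 6.60 and 5.13 on the HFD arrays, against 6.78, 5.95 and 5.44 on the ND arrays. At 2 months it read 7.08, 7.04 and 5.92 for HFD, against 6.74, 6.33 and 5.90 for ND, and at 4 months 6.54, 6.93 and 7.0 for HFD, against 6.82, 7.03 and 8.10 for ND. At 2 months HFD replicates 1 and 2 exceeded every ND array while replicate 3 did not. The diet differences were -0.33, 0.36 and -0.49, each with a standard error of 0.46 and an interval that included 0, and without ND replicate 1 the 1-month difference was 0.03. Nfkbia and Tnfaip3 had SDs of 0.75 and 0.74 over the 18 arrays, larger than those of 94.2% and 94.1% of tested probe sets, whose median SD was 0.23.

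The ligand Tnf (chr20:3626685-3629303), a cytokine that both activates the pathway and is its target, was dim. Its brighter probe set read 4.32, 4.25 and 4.44 on the HFD arrays at 1 month, against 4.16, 4.05 and 3.92 on the ND arrays. All HFD arrays lay above all ND arrays there, making Tnf the 1 gene of 10 whose diets did not overlap at 1 month, where 16.9% of all named genes did not and 5.39% lay higher in HFD throughout. The difference was 0.29 ± 0.16 (SE), with an adjusted p of 0.600. The 2-month arrays read 4.19, 4.31 and 4.41 for HFD, against 4.38, 4.03 and 4.37 for ND, and at 4 months 4.54, 4.22 and 4.27 for HFD, against 3.79, 4.39 and 4.49 for ND, with overlap at both times.

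The dimmer Tnf probe set did not show that separation. It read 3.26, 3.46 and 3.28 on the HFD arrays at 1 month, against 4.12, 3.31 and 2.97 on the ND arrays, with several arrays near the filter level of 3.22. At 2 months it read 2.88, 2.76 and 3.64 for HFD, against 4.73, 3.78 and 3.29 for ND, and at 4 months 4.29, 4.95 and 5.25 for HFD, against 3.29, 5.74 and 4.53 for ND. The diets overlapped at each time. Averaging both probe sets gave a 1-month difference of 0.08 in place of 0.29, so the probe sets of Tnf disagreed.

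Ptgs2 (chr13:64714063-64722320) encodes cyclooxygenase-2, the inducible enzyme that starts prostaglandin synthesis. It read 8.48, 9.69 and 9.20 on the HFD arrays at 2 months, against 7.50, 7.63 and 6.00 on the ND arrays. Every HFD array was higher than every ND array. Ptgs2 and Birc3 were the 2 genes of 10 whose diets did not overlap at 2 months, where 25.5% of all named genes did not (10.7% higher in HFD and 14.8% lower). The Ptgs2 difference was 2.08 ± 0.52 log2 units (SE), 4.23-fold, with a 95% interval of 0.97 to 3.19 and an adjusted p of 0.0506 in limma, just outside the threshold. It passed on leaving out ND replicate 2 or 3 or HFD replicate 2 at 1 month or ND replicate 3 at 4 months, with a lowest adjusted p of 0.0401. The adjusted p was 0.0391 with the macrophage list mean as a covariate, where the difference was 2.47, and 0.159 when the other groups were left out of the fit.

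At the other times the Ptgs2 ranges were less apart. At 1 month it read 7.48, 7.93 and 6.75 on the HFD arrays, against 5.59 and 7.15 on ND replicates 2 and 3, with no value for ND replicate 1. The diets overlapped, and the difference of 1.01 ± 0.58 (SE, adjusted p = 0.600) was 0.24 without ND replicate 2 and 1.79 without ND replicate 3. At 4 months it read 8.43, 8.68 and 8.32 for HFD, against 8.05, 7.64 and 8.93 for ND, a difference of 0.27 ± 0.52 with an interval of -0.84 to 1.38. All 3 HFD arrays lay inside the ND range.

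Averaged over the 3 times, Ptgs2 was 1.12 ± 0.31 log2 units higher in HFD (SE, 2.18-fold), with an adjusted p of 0.0679 in limma. Without ND replicate 3 at 1 month it was 1.38 with an adjusted p of 0.0372, and without ND replicate 2 at 1 month 0.86 with an adjusted p of 0.177. It was the 1 gene of 10 with an unadjusted p under 0.05 for the average (20.8% of all named genes), and 0 of 10 passed after adjustment (2.43% of all named genes). The F test of whether the diet difference changed between times gave Ptgs2 an adjusted p of 0.785. On that test 0 of the 10 genes passed (0% of all named genes) and 0 had an unadjusted p under 0.05 (6.67%). The larger Ptgs2 difference at 2 months than at 1 or 4 months was therefore not shown to differ between the times.

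Birc3 (chr8:13285702-13313329) encodes cIAP2, a ubiquitin ligase that promotes survival signalling from tumor necrosis factor receptors. At 2 months it read 5.25, 5.27 and 5.31 on the HFD arrays, against 5.83, 5.81 and 5.31 on the ND arrays. The HFD arrays lay below the ND arrays, but ND replicate 3 stood only just above HFD replicate 3. The difference was -0.37 ± 0.25 (SE, adjusted p = 0.396). At 1 month Birc3 read 5.27, 5.77 and 5.09 for HFD, against 6.08, 5.35 and 5.04 for ND, and at 4 months 5.67, 5.97 and 6.02 for HFD, against 5.59, 5.88 and 6.14 for ND. The diets overlapped at both times.

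Icam1 (chr8:27829688-27841618) encodes an adhesion molecule that binds leukocyte integrins. It read 8.37, 8.49 and 8.64 on the HFD arrays at 1 month, against 8.80, 8.51 and 8.57 on the ND arrays, and 8.62, 8.58 and 8.20 for HFD at 2 months, against 8.65, 8.46 and 8.44 for ND. At 4 months it read 8.70, 8.69 and 8.98 for HFD, against 8.33, 8.74 and 8.56 for ND. The diets overlapped at all 3 times, the 4-month difference of 0.25 ± 0.14 (SE, adjusted p = 0.999) being the largest. At 4 months 0 of the 10 genes had diets that did not overlap, against 8.04% of all named genes.

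**Figure D2:**
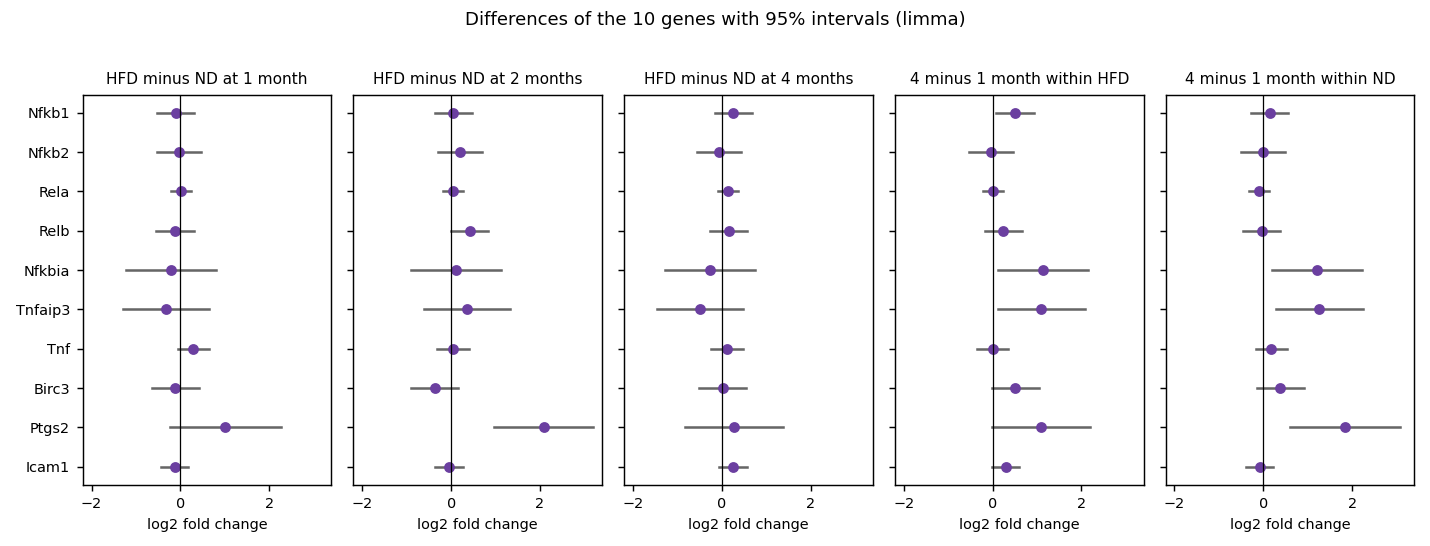
Log2 fold change (x axes) of each gene with its 95% interval from limma, for HFD minus ND at 1, 2 and 4 months and for 4 minus 1 month within each diet. The interval of Ptgs2 at 2 months, 0.97 to 3.19, lies above 0, and at 4 minus 1 month those of Nfkbia and Tnfaip3 lie above 0 in both diets, though none passed after adjustment.

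The comparisons between feeding times asked how the genes differed in cells from longer-fed animals, which were also older, so feeding time and age cannot be told apart. Comparisons within a diet that use the same time share its arrays. No gene passed in any of them. The 4-month arrays averaged higher than the 1-month arrays in either diet for both inhibitors, Ptgs2, Birc3 and Nfkb1. The brighter Tnf probe set hardly differed in HFD (0.005 ± 0.16, SE) and differed by 0.18 ± 0.16 in ND. Birc3 differed by 0.51 in HFD and 0.38 in ND (adjusted p = 0.643 and 0.664 in limma). For 4 minus 1 month, 0 of 10 genes passed within HFD (0% of all named genes) and 0 of 10 within ND (0%), with 3 at an unadjusted p under 0.05 in each (7.84% of named genes in HFD and 9.96% in ND). The median log2 fold change over the 10 genes was 0.40 in HFD and 0.16 in ND, beside 0.00 and -0.03 over all named genes.

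By the brightest probe set of each gene, the inhibitors had the largest 4 minus 1 month differences in HFD, and the dimmer Tnf probe set had a larger one of 1.49 ± 0.52 (adjusted p = 0.513) with no overlap. Nfkbia read 8.03 ± 0.66 at 4 months and 6.89 ± 0.71 at 1 month in HFD (mean ± SD, n = 3 each), a difference of 1.14 with an adjusted p of 0.587. In ND it read 8.30 ± 0.55 at 4 months and 7.10 ± 0.71 at 1 month, a difference of 1.20 with an adjusted p of 0.465. Both comparisons overlapped by an array, HFD replicate 2 and ND replicate 1 at 1 month being high. Tnfaip3 averaged 6.82 ± 0.24 at 4 months and 5.73 ± 0.77 at 1 month in HFD, and 7.32 ± 0.69 and 6.06 ± 0.67 in ND at the same times. Its differences of 1.10 and 1.26 had adjusted p-values of 0.585 and 0.424.

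Ptgs2 averaged 8.48 ± 0.18 at 4 months and 7.38 ± 0.60 at 1 month in HFD, a difference of 1.09 with an adjusted p of 0.634. In ND it averaged 8.21 ± 0.66 at 4 months (n = 3) and 6.37 ± 1.10 at 1 month (n = 2), a difference of 1.84 with an adjusted p of 0.401, which was 1.06 without ND replicate 2 and 2.61 without ND replicate 3 at 1 month. Neither diet's arrays overlapped between these times. In HFD 3 of the 10 genes did not overlap between 4 and 1 month, namely Ptgs2, Nfkb1 and Icam1, all higher at 4 months, where 17.1% of all named genes did not overlap and 8.61% lay higher at 4 months. In ND 2 did not overlap, namely Ptgs2 and Tnfaip3, both higher at 4 months, where 13.9% did not overlap and 4.06% lay higher at 4 months. Nfkb1 was 0.50 ± 0.20 higher at 4 than at 1 month in HFD (adjusted p = 0.566) and 0.14 ± 0.20 higher in ND (adjusted p = 0.848), and the difference between these 2 was not tested.

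The steps through 2 months, compared in addition, ran differently for single genes. Between 2 and 1 month, 0 of 10 genes passed in HFD (0.0961% of all named genes) and 0 of 10 in ND (0%). In HFD 2 genes had an unadjusted p under 0.05 (7.84% of named genes), Ptgs2 with a difference of 1.74 (adjusted p = 0.351) and Relb with 0.54 (adjusted p = 0.484). In ND none of the 10 did (2.22%). Ptgs2 was the 1 gene whose HFD arrays did not overlap between these times (13.6% of named genes, 7.23% higher at 2 months), and in ND there was none (6.47%).

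Between 4 and 2 months, 0 of 10 genes passed in HFD (0.769% of all named genes) and 0 of 10 in ND (0%). At an unadjusted p under 0.05 there were 2 in HFD (18.7%), Birc3 with a difference of 0.61 (adjusted p = 0.229) and Icam1 with 0.33 (adjusted p = 0.270). Ptgs2 differed by -0.64 ± 0.52 in HFD (adjusted p = 0.550). Nfkb1, Birc3 and Icam1 did not overlap in HFD and were all higher at 4 months (28.5% of named genes, 13.7% higher). In ND 3 genes had an unadjusted p under 0.05 (7.11%), namely Ptgs2, Nfkbia and Tnfaip3, with differences of 1.17, 1.06 and 0.99 and adjusted p-values of 0.659, 0.659 and 0.666. The same 3 did not overlap in ND, all higher at 4 months (10.9% of named genes, 3.53% higher). The dimmer Tnf probe set differed by 1.74 ± 0.52 between 4 and 2 months in HFD (adjusted p = 0.122), and its brighter one by 0.04 ± 0.16 (adjusted p = 0.931).

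Macrophage markers moved with several of these contrasts. All 22 tested markers read lower in HFD at 2 months (median log2 fold change -1.58) and 21 of 22 read higher in HFD at 1 month (median 1.71), and none passed. All 22 read higher at 4 than at 1 month in both diets, with medians of 1.15 in HFD and 2.47 in ND. At 4 minus 2 months in HFD, where Birc3 and Icam1 did not overlap, the median was 2.46. Their part in the results for these genes was not tested except where the list mean was a covariate, and in bulk RNA fewer cells of a type and less RNA per cell cannot be told apart. Ptgs2 at 2 months was higher in HFD while the markers were lower there. Of the 16 stromal markers, 1 passed at 2 months (2.49% of all named genes did), the growth factor receptor Pdgfra, which fell by 1.08 in HFD (SE 0.25, adjusted p = 0.0427). Dcn differed by -2.68 (adjusted p = 0.0588), the transcription factor Prrx1 by -0.66 (adjusted p = 0.0715) and the ectonucleotidase Nt5e by -1.49 (adjusted p = 0.131), while the list's median was 0.03, and their part in the 2-month results was not tested.

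Birc3 separated the arrays of low marker level from the others. Its 8 lowest readings, 5.04 to 5.35, were those of all 3 HFD arrays at 2 months, HFD replicates 1 and 3 and ND replicates 2 and 3 at 1 month, and ND replicate 3 at 2 months. On each of these 8 arrays the mean of the macrophage list, set relative to each gene's own mean, was below 0. On the other 10 arrays Birc3 read 5.59 to 6.14 and the list mean was above 0, but within these 10 the order differed, the highest Birc3 reading (ND replicate 3 at 4 months) having the lowest list mean of them, 0.23.

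**Figure D3:**
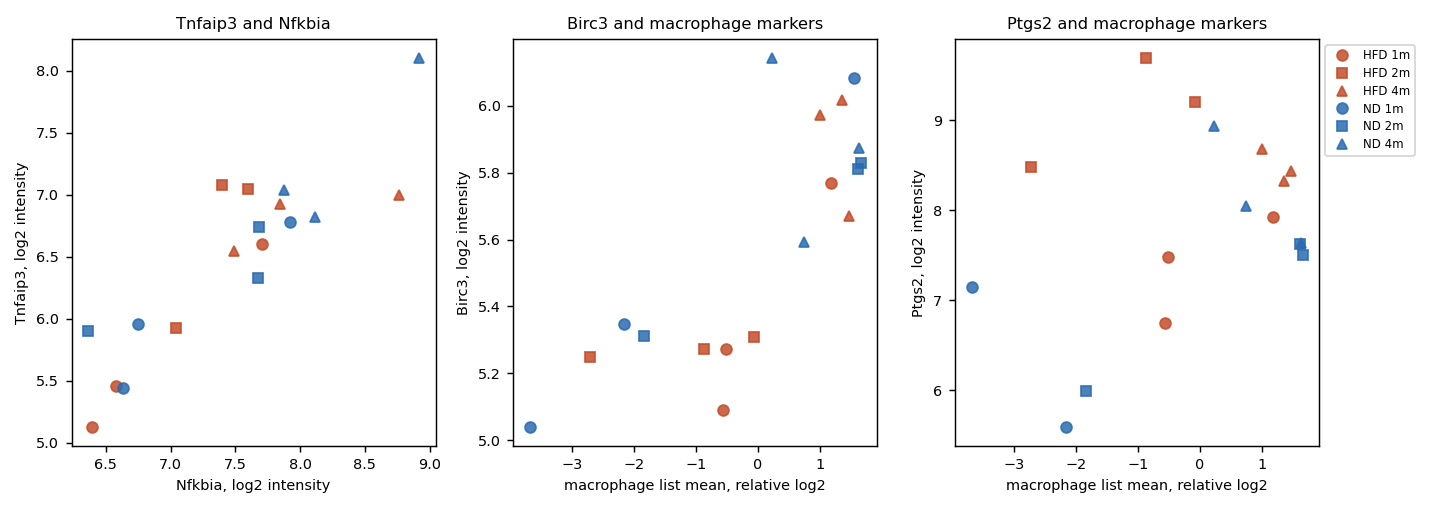
Log2 intensity on each array of Tnfaip3 against Nfkbia, and of Birc3 and Ptgs2 against the mean of the macrophage list (log2 units relative to each gene's mean), with colour for diet and shape for feeding time. Birc3 lies between 5.04 and 5.35 wherever the list mean is below 0 and between 5.59 and 6.14 elsewhere. Ptgs2 at 2 months in HFD reads 8.48, 9.69 and 9.20 at list means of -2.72, -0.87 and -0.07.

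Arrays of one group also differed together. Correlations were computed for 45 pairs of genes on the deviations from each group's mean, over the 18 arrays. Pairs with Ptgs2 used 17 arrays, as it has no value for ND replicate 1 at 1 month. Exact two-sided p-values came from all permutations within groups. The correlation was positive in 39 of the 45 pairs, with a median Pearson r of 0.41, and 4 pairs passed after Benjamini-Hochberg adjustment over the 45. Nfkbia and Birc3 had r = 0.865 and Spearman rho = 0.884 (exact permutation p = 0.00165 and 0.00219, adjusted 0.0186 and 0.0246), and r was 0.808 without the 2 arrays farthest from the median of Nfkbia. Nfkbia and Tnfaip3 had r = 0.845 and rho = 0.818 (exact permutation p = 1.7e-04 for both, adjusted 0.00772), and 0.773 without 2 arrays. For Tnfaip3 and Birc3 r was 0.817 and rho 0.777 (exact permutation p = 6.0e-04 and 0.00202, adjusted 0.0135 and 0.0246), and 0.765 without 2 arrays.

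The fourth pair joined Nfkb2 and Icam1, with r = 0.808 and rho = 0.814 (exact permutation p = 9.2e-04 and 8.4e-04, adjusted 0.0138 and 0.0188), and 0.750 without 2 arrays. Nfkb1 and Tnfaip3 passed by rho (0.765, adjusted exact permutation p = 0.0496) and not by r (0.739, adjusted exact permutation p = 0.0727). Nfkb2 and Relb had a similar r of 0.812 but an adjusted exact permutation p of 0.107, and r was 0.576 without 2 arrays. In each of the 4 pairs that passed by r, other named genes correlated more highly with either gene. Those with an r at least as high made up 0.0349% to 1.67% of named genes, and the median r over all of them was -0.003 to 0.05. Among 11445 other named genes, Tnfaip3 was 116th and Birc3 70th by r with Nfkbia, while Nfkbia was 33rd with Tnfaip3 and 65th with Birc3. Birc3 was 64th with Tnfaip3, and Tnfaip3 was 191st with Birc3. Nfkb2 was 4th with Icam1, and Icam1 was 20th with Nfkb2.

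The macrophage list mean was related to the same deviations in a family of 11 probe sets, and 0 passed after adjustment by r or rho. Birc3 had the highest r with it, 0.774 (rho = 0.693, exact permutation p = 0.013 and 0.0205, adjusted 0.0973 and 0.123, and r = 0.615 without 2 arrays). Nfkbia had r = 0.604 (rho = 0.542, adjusted exact permutation p = 0.143 and 0.189), and 0.379 without 2 arrays. Holding the list mean constant, the 3 correlations among Nfkbia, Tnfaip3 and Birc3 were 0.825, 0.787 and 0.873 (Nfkbia with Tnfaip3, Nfkbia with Birc3 and Tnfaip3 with Birc3), and that of Nfkb2 with Icam1 was 0.818.

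**Figure D4:**
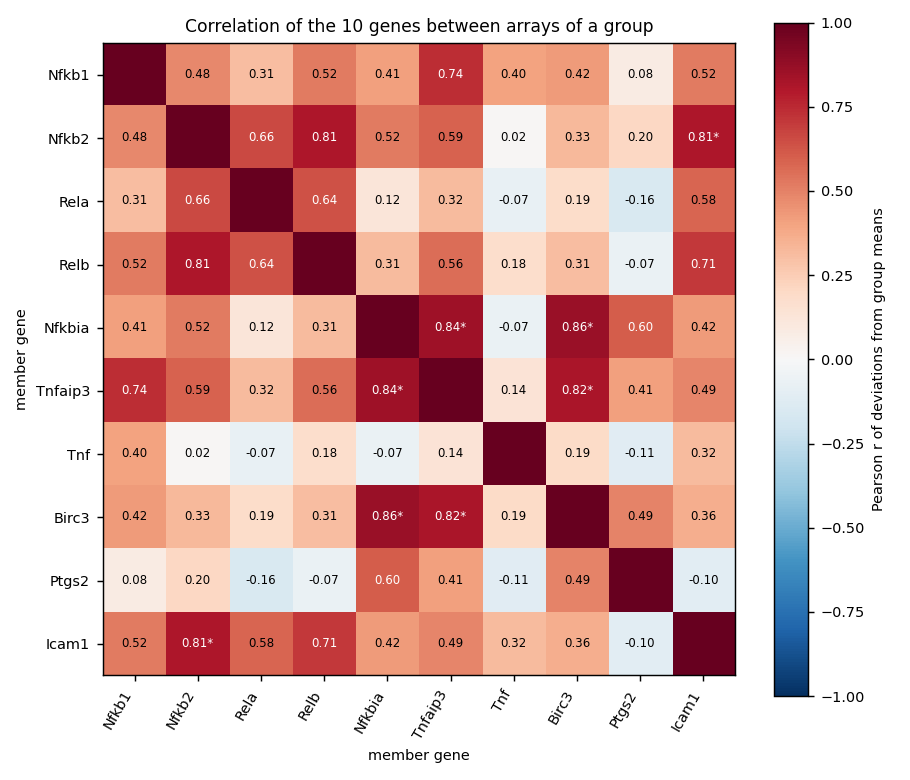
Pearson r between each pair of the 10 genes (both axes), computed over 18 arrays (17 for Ptgs2) on deviations from group means. The colour scale runs from -1 to 1, with stars on the 4 pairs that passed. Nfkbia, Tnfaip3 and Birc3 join each other at 0.82 to 0.86. Ptgs2 has 0.60, 0.41 and 0.49 with these genes, in that order, and no pair with Ptgs2 passed. Its values with the remaining genes, and those of Tnf with most genes, are weak or negative.

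As a description, the named genes most like the 4 most variable genes of the set were found by Pearson r of log2 levels over the arrays, among 11436 genes, with diet and time differences left in. Nfkbia was most like Adam17, the protease that sheds tumor necrosis factor (r = 0.965, 17 arrays), the cytokine Il1b (0.947, 18 arrays) and the transporter Slc47a1 (0.918). Tnfaip3 was most like Adam17 (0.866), the RNase Zc3h12a that degrades inflammatory messages (0.866) and Tex2 (0.860). Birc3 was most like the chromatin remodeller Chd7 (0.938), the glycerol-phosphate dehydrogenase Gpd2 (0.937) and the transaldolase Taldo1 (0.930). Ptgs2 was most like Tmem199 (0.908), Wdr54 (0.881) and the neuronal calcium sensor relative Hpcal1 (0.878), each over 17 arrays.

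Beyond the 10 genes, 7 lists of the wider pathway held 134 genes, 105 of them tested, and 3 of these passed in some comparison. Of all named genes, 2.49% passed at 2 months, 2.43% for the diet average and 0.769% between 4 and 2 months in HFD, so the 2-month count of 2 in 105 is near the background. Of 35 other tested NF-kB target genes at 2 months, 1 passed upward and 0 downward, and 34 did not pass (2.49% of all named genes passed), with a median log2 fold change of -0.27 beside -0.04 over all named genes. The one that passed was Gadd45b, a stress-induced protein that restrains JNK signalling. It read 10.23, 9.54 and 9.14 on the HFD arrays at 2 months, against 7.95, 8.36 and 8.33 on the ND arrays. All HFD arrays were higher, and Gadd45b rose by 1.42 ± 0.31 in HFD (SE, adjusted p = 0.0294). The adjusted p was 0.129 at the same difference when the other groups were left out of the fit, 0.0554 at a difference of 1.27 with the macrophage list mean as a covariate, and 0.0612 to 0.132 on leaving out HFD replicate 1 or 2 or ND replicate 1 or 2 at 2 months.

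Of 13 tested receptors upstream of NF-kB, 1 passed downward at 2 months and 12 did not pass (2.49% of all named genes passed), with a median of -0.52 beside -0.04 over all named genes. Tnfrsf1a, the main receptor for tumor necrosis factor, read 8.44, 8.27 and 8.47 on the HFD arrays, against 8.87, 8.97 and 8.92 on the ND arrays. The 2 ranges were well apart, and Tnfrsf1a fell by 0.52 on the log2 scale in HFD (SE 0.10, adjusted p = 0.0238), in a fit with no value for ND replicate 1 at 1 month. Its adjusted p was 0.135 at the same difference when the other groups were left out of the fit, and 0.0515 at a difference of -0.50 with the macrophage list mean as a covariate. It lay between 0.0690 and 0.115 on leaving out any of the same 4 arrays. Between 4 and 2 months in HFD, Tnfrsf1a rose by 0.53 (adjusted p = 0.0429) and Gadd45b fell by 1.5 (adjusted p = 0.0447). These 2 calls were lost with the replicate number as a block, which left the differences as they were (adjusted p = 0.0679 for both). With the macrophage list mean as a covariate Tnfrsf1a differed by 0.49 (adjusted p = 0.147) and Gadd45b by -1.27 (adjusted p = 0.138). The Tnfrsf1a call was also lost on leaving out any of 11 single arrays and the Gadd45b call on leaving out any of 13, with adjusted p-values up to 0.197 and 0.230.

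None of the 24 tested kinases and adaptors, 9 other brakes, 6 ligands or 4 partners of the Rel family passed in any comparison. The 4 partners were Nfkbib, Nfkbiz, Nfkbid and Bcl3, and the listed Rel-family gene Rel was not among the tested genes. Among the kinases and adaptors Irak3, a kinase-like protein that damps Toll-like receptor signals, read 6.30, 6.46 and 6.93 on the HFD arrays at 2 months, against 8.59, 8.24 and 7.37 on the ND arrays, a difference of -1.51 (adjusted p = 0.0687). The adaptor Traf1 differed by 0.36 (adjusted p = 0.0887). Among the brakes, the deubiquitinase Otud7b differed by 0.51 (adjusted p = 0.0506) and the deubiquitinase Cyld by -0.26 (adjusted p = 0.231). Otud7b passed with the dimmest 50% left out, quantile normalization, array weights or averaged probe sets and without HFD replicate 3 at 1 or at 2 months (adjusted p 0.00980 to 0.0424), and Irak3 with array weights and without ND replicate 3 at 1 or at 2 months (adjusted p 0.00441 to 0.0498). With array weights Traf1, Nfkbid, Nfkbiz and Tnfsf12 also passed (adjusted p 0.0106 to 0.0468). The share of all named genes that passed under these other settings is not given here. Traf1 and Nfkbid were dim, with group means of 4.35 to 4.72 and 4.00 to 4.40. The nuclear IkB proteins Nfkbid and Nfkbiz differed by 0.34 and -0.86 (adjusted p = 0.209 and 0.216), and the ligands Tnfsf12 and Hmgb1 by -0.51 and -0.22 (adjusted p = 0.249 and 0.288). All 6 tested ligands read lower in HFD at 2 months, with a median of -0.38 beside -0.04 over all named genes. For Il1a, Il1b and Il33 the standard error exceeded the difference (-0.32 ± 1.37, -0.43 ± 1.17 and -0.11 ± 0.53). For Il18, Tnfsf12 and Hmgb1 it did not.

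Of 14 tested genes of prostaglandin synthesis and signalling, the pathway that Ptgs2 opens, 1 passed for the diet difference averaged over the times and 13 did not (2.43% of all named genes passed), with a median of 0.03 beside -0.04 over all named genes. Ptger4, a receptor for prostaglandin E2, read 4.14, 3.85 and 4.12 on the HFD arrays at 1 month, against 4.41, 4.26 and 4.17 on the ND arrays. The 2-month arrays read 3.89, 3.97 and 3.57 for HFD, against 4.57, 3.94 and 4.29 for ND, and at 4 months 4.00, 3.74 and 3.65 for HFD, against 4.37, 4.05 and 4.29 for ND. HFD means were lower at all 3 times, with overlap only at 2 months. Ptger4 fell by 0.38 on average (SE 0.09, adjusted p = 0.0468). The call was lost on leaving out any of 15 of the 18 arrays (adjusted p 0.0605 to 0.101), the others being ND replicate 3 at 1 month and ND replicate 2 at 2 and at 4 months.

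**Figure D5:**
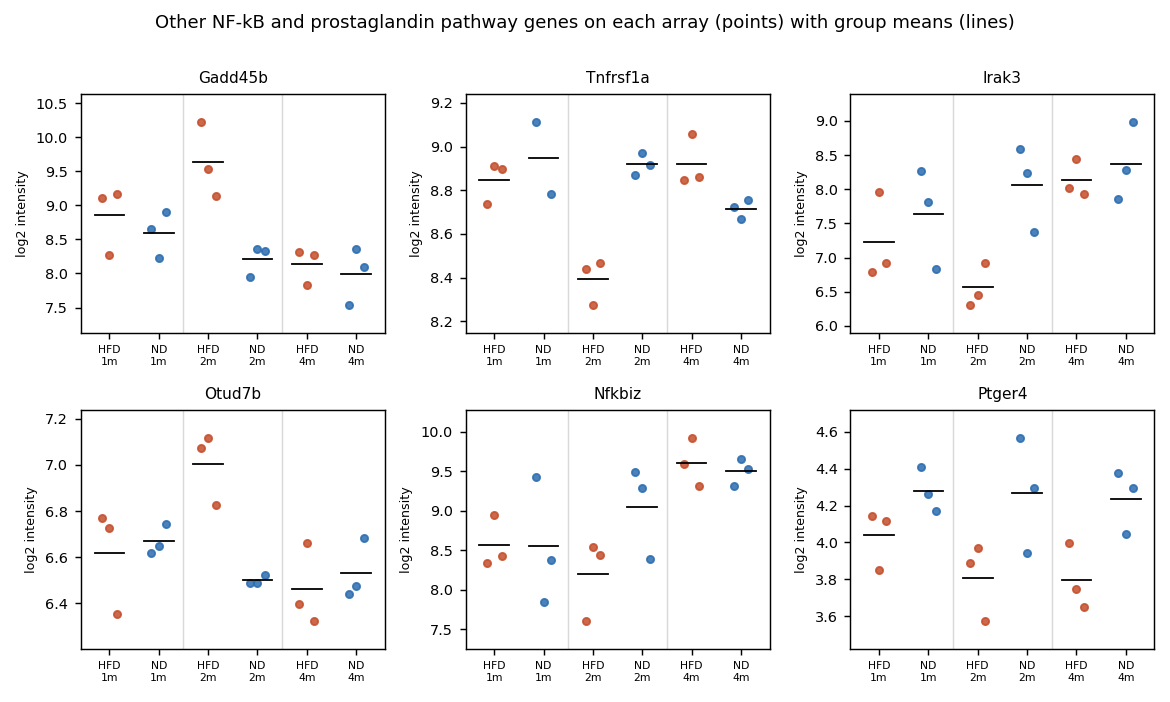
Log2 intensity (y axes, separate scales) of 6 further genes of the NF-kB and prostaglandin pathways on the 18 arrays, with points for arrays and lines for group means. At 2 months Gadd45b reads 9.14 to 10.23 in HFD and 7.95 to 8.36 in ND, and Tnfrsf1a 8.27 to 8.47 in HFD and 8.87 to 8.97 in ND.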

How the data were processed

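RNA of 18 cultures was measured on Affymetrix arrays, 3 for each diet and feeding time. The deposited values are linear intensity values per probe set, made by the authors with RMA, per the submitters' processing notes, with no version given. The column of ND replicate 1 at 1 month was displaced and was moved down by its 1343 trailing empty cells, which took its correlation with the average of the others to 0.990, against 0.0909 before. That array has no value for 1066 of the tested probe sets, those of Ptgs2 and Tnfrsf1a among them, and their fits use the remaining arrays.

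The log2 of each deposited intensity was used with no added constant. Of 31099 probe sets, 57 controls and the dimmest 30% of the others by mean log2 (3.22 or below) were left out. Group means were estimated from all arrays together with limma 3.58.1 under R 4.3.3 (12 residual and 2.43 prior degrees of freedom). Tests were two-sided, with Benjamini-Hochberg adjustment over 21729 probe sets. The brightest tested probe set stood for a gene, named by the platform annotation with identifiers looked up in RefSeq's GRCr8 table. The comparisons 2 minus 1 and 4 minus 2 months were added after seeing the data.

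All 10 genes are described. From each pathway list every gene that passed in a comparison is named (up to 4), and otherwise the 2 with the largest absolute moderated t at 2 months. For likeness the 3 genes with the highest r were taken for the 4 most variable genes of the set. The 10 genes and the lists were chosen with earlier results of these data known.

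Same-numbered arrays did not deviate together, so the replicate number was not treated as pairing. Each p-value reflects array-to-array spread, and the sources give 3 samples per group without saying that each was a different animal. That number limits the precision. The procedure was tested on simulated data. The alternatives were 12 other settings and leaving out each of the 18 arrays in turn.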

Additional observations from a re-analysis of the deposited data

How the results depend on the processing

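In the original setting 0 of the 10 genes passed in any comparison. At 2 months (HFD minus ND) the count was 1, Ptgs2, with the dimmest 50% of probe sets left out, with quantile normalization, with array weights and with the macrophage list mean as a covariate. Leaving out single arrays gave 0 to 1 there, the one being Ptgs2 without ND replicate 2 or 3 or HFD replicate 2 at 1 month or ND replicate 3 at 4 months, and Relb without HFD replicate 3 at 2 months. The Ptgs2 difference then ran from 1.56 to 2.40 and its adjusted p from 0.0401 to 0.192. For the diet average the count was 1, Ptgs2, with array weights, and 0 to 1 on leaving out single arrays, 1 without ND replicate 3 at 1 month. With array weights the count was also 2 for 4 minus 1 month within HFD (Nfkbia and Tnfaip3), 3 for 2 minus 1 month within HFD (Relb, Tnfaip3 and Ptgs2) and 1 for 4 minus 2 months within HFD (Birc3). Array weights also brought several genes of the pathway lists below the threshold. The share of all named genes that passed under each of these other settings is not given here. The counts therefore cannot be read as particular to the 10 genes. The cause of the changes in count was not tested.

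Differences that had not passed turned sign on leaving out single arrays, at 2 months among others Nfkb2 (0.20, and -0.04 without HFD replicate 1), Nfkbia (0.11, and -0.33 without ND replicate 3) and Icam1 (-0.05, and 0.08 without HFD replicate 3). Same-numbered arrays had a mean residual correlation of -0.0254 over 45 pairs, and 5 of 18 arrays correlated best with their own number. With the replicate number as a block, the counts for the 10 genes stayed at 0, and Ptgs2 at 2 months had a difference of 2.08 with an adjusted p of 0.0802.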
